A study of Mus musculus with 12 samples.

Results

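The genes of antigen presentation were followed in mouse pre-B cells transformed by BCR-ABL1, which model pre-B acute lymphoblastic leukemia. The members were every gene whose symbol begins with H2-, the prefix of the mouse major histocompatibility complex (MHC), and 16 named genes of the same machinery. The table held 34 of them among its 12151 genes, of which 21 carried an H2- symbol and 13 were named genes. Ciita, Cd80 and Cd86 were not analysed here. By role they were 2 classical and 11 nonclassical class I heavy chains, 6 genes of the class I light chain and peptide loading, 1 class I transactivator, 3 class II chains, 5 class II chaperone or peptide exchange genes, 3 class II regulators, Cd1d1, Cd40, and H2-Ke6, which encodes no MHC chain.

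RNA was sequenced from 12 libraries in 4 groups of 3. All cells carried BCR-ABL1 and, on 1 copy of Ctnnb1 (β-catenin), an exon 3 flanked by loxP sites. ERT2 WT cells received nontargeting guides and a vector for the tamoxifen-binding ERT2 domain alone, and Cre-ERT2 WT cells the same guides and a vector for Cre fused to ERT2, which removes exon 3 after 4-hydroxytamoxifen (4-OHT) and so stabilizes β-catenin. ERT2 KO and Cre-ERT2 KO cells received guides against Ikzf1 and Ikzf3, which encode the lymphoid transcription factors Ikaros and Aiolos, and the same 2 vectors. Lines were grown from single edited cells of bone marrow taken from mice aged 6-12 weeks, and transduced cells were sorted on GFP. For these libraries the labels name day 1 after 4-OHT, in wording about chromatin experiments. Which clones gave which libraries is not stated, so a difference between KO and WT cannot be told apart from a difference between clones, and P values measure only the spread between these libraries, which may be technical. The H2 haplotype of the mice is not given in the sources used here.

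Class I molecules pair a polymorphic heavy chain with β2-microglobulin, the product of B2m, and show peptides made in the cytosol to CD8 T cells. The TAP transporter moves these peptides into the endoplasmic reticulum, where ERAP1 trims them and tapasin helps to load them. Class II molecules show peptides from the endosomal route to CD4 T cells. The invariant chain, CD74, guards their groove, and the DM and DO proteins govern its exchange for peptide. Surface class II is a feature of B cells and dendritic cells, and class I is found on nearly every nucleated cell.

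Values are log2 expression as deposited, normalized between libraries by the authors. They held no read counts, so depth is unknown, and weakly expressed genes may be compressed on this scale. The median gene had a value of 9.06 to 9.11 in every library, and the lowest value in the table was 1.76. Genes count as called below an adjusted p of 0.05 in limma, fitted to all 12 libraries and adjusted over all genes. All 12 listed pre-B marker genes were present with means above 8, and their summed level was 16.85 to 16.89 in WT and 16.43 to 16.48 in KO libraries. They did not move together. Between KO and WT, 8 were called lower and 2 higher with ERT2 (changes of -0.87 to 0.38). With Cre-ERT2 9 were called lower and 2 higher (-0.93 to 0.44). Rag1 and Rag2 were the genes called higher. Of all genes 29.3% and 28.6% were called lower. In libraries labelled KO, Ikzf3 RNA was lower by 0.65 with ERT2 and by 0.70 with Cre-ERT2, whereas Ikzf1 RNA was higher by 1.01 and 0.90. RNA of an edited gene need not fall, so these values check the label only in part, and KO stands below for libraries labelled KO. Ctnnb1 RNA differed by 0.06 with Cre-ERT2 in WT (not called) and by 0.13 in KO.

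Libraries labelled KO had lower RNA for most of the class I route and for the invariant chain, and higher RNA for the class II chain gene H2-Ab1. In ERT2 cells 24 of the 34 members were called, 18 lower and 6 higher, where 59.0% of all genes were called. In Cre-ERT2 cells 22 were called, 19 lower and 3 higher, where 58.9% of all genes were called. Those lower made up 52.9% of the members against 29.3% of all genes with ERT2, and 55.9% against 28.6% with Cre-ERT2. Of the 12151 genes, 3616 were called higher with ERT2 and 3688 with Cre-ERT2. The members called lower in both numbered 18, where 24.1% of all genes were lower in both, those higher in both 3, and none was called in opposite directions. The ERT2 and Cre-ERT2 comparisons share no library, but their calls came from the same fit to all 12 libraries, and they may share clones.

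Large changes were mostly decreases. A decrease of at least 0.5 was called for 7 members with ERT2 (20.6% of members, 3.05% of all genes) and for 8 with Cre-ERT2 (23.5% and 3.14%). The 7 were B2m, H2-D1, H2-Q4, H2-T10, H2-T22, Tapbp and Cd74, all of which were also lower by at least 0.5 with Cre-ERT2, where H2-Ob joined them. All KO libraries lay below all WT libraries for 19 members with ERT2 (32.1% of all genes) and for 21 with Cre-ERT2 (30.7%). The median member changed by -0.15 and -0.18, and the median of all genes by 0.0016 in both comparisons. With each library centred on its median, the split in ERT2 cells was 21 lower and 3 higher. In bulk RNA, fewer expressing cells and less RNA per cell cannot be told apart.

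**Figure D1:**
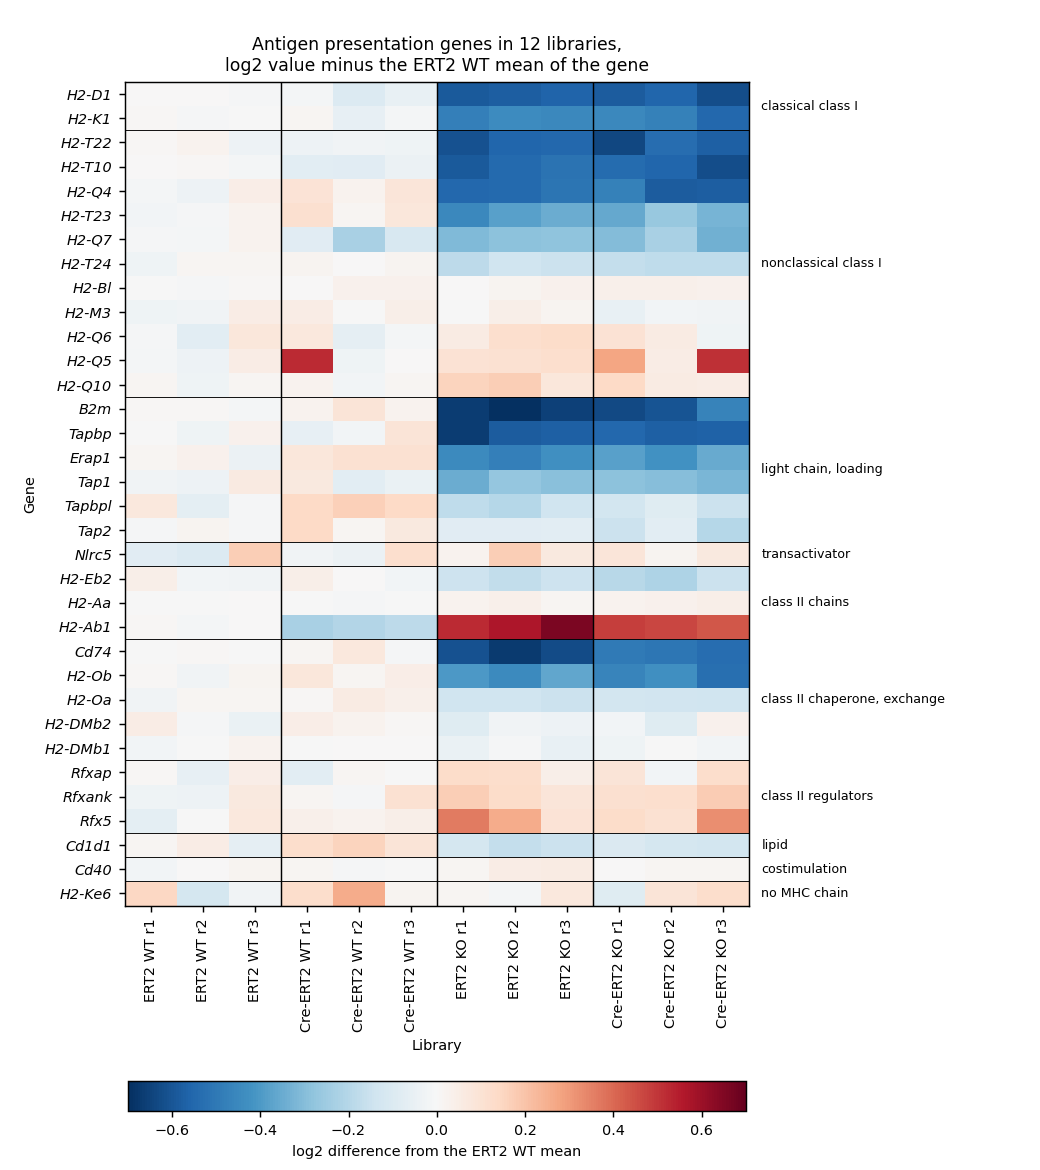
Each cell gives the log2 value of a gene (vertical axis, ordered by role) in a library (horizontal axis) minus the mean of that gene in the 3 ERT2 WT libraries. The 6 KO columns are blue for the classical heavy chains, B2m, Tapbp and Cd74 and red for H2-Ab1, while H2-Q5 has 2 single libraries far above the others.

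The class I light chain and both classical heavy chains, the 3 most abundant members per length, all fell. Per kilobase of exon, on the log2 scale, ERT2 WT levels were 14.92 for B2m, 12.83 for H2-D1 and 11.87 for H2-K1, and the next member stood at 9.88. B2m had log2 values of 14.71, 14.71 and 14.69 in ERT2 WT, 14.73, 14.79 and 14.73 in Cre-ERT2 WT, 14.04, 14.01 and 14.05 in ERT2 KO, and 14.07, 14.10 and 14.24 in Cre-ERT2 KO. It fell by 0.67 (SE 0.036, limma adjusted p = 5.43e-09) with ERT2 and by 0.61 (adjusted p = 1.28e-08) with Cre-ERT2. No KO library of either vector came near the WT range of B2m, whose gene lies on chromosome 2 (chr2:122147686-122153083, GRCm38, plus strand), outside the MHC.

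H2-D1 and H2-K1 encode the classical heavy chains that present peptide to CD8 T cells, and they lie on either side of the class II region (H2-K1 at chr17:33996017-34000347 on the minus strand, H2-D1 at chr17:35262730-35267499 on the plus strand, GRCm38). H2-D1 had values of 14.21, 14.20 and 14.19 in ERT2 WT, 14.19, 14.11 and 14.15 in Cre-ERT2 WT, 13.61, 13.62 and 13.64 in ERT2 KO, and 13.62, 13.64 and 13.58 in Cre-ERT2 KO. Its groups did not overlap between KO and WT, and the change was -0.58 (SE 0.023, limma adjusted p = 2.82e-10) with ERT2 and -0.53 (adjusted p = 6.19e-10) with Cre-ERT2. H2-K1 stood at 13.43, 13.41 and 13.42 in ERT2 WT, 13.43, 13.37 and 13.41 in Cre-ERT2 WT, 12.94, 12.98 and 12.97 in ERT2 KO, and 12.97, 12.95 and 12.87 in Cre-ERT2 KO. The values again fell into separate KO and WT ranges, with changes of -0.46 and -0.47 (SE 0.027 in both, limma adjusted p = 1.45e-08 and 9.48e-09). Of the 100-base stretches in their annotated transcripts, 3.59% of those of H2-D1 and 0.957% of those of H2-K1 also occur in another gene.

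The nonclassical class I genes, many of which encode ligands of innate-like T cells or natural killer cells, divided. With either vector 6 of 11 were called lower and 1 higher, where 29.3% (ERT2) and 28.6% (Cre-ERT2) of all genes were called lower. H2-T22 held values of 11.63, 11.64 and 11.58 in ERT2 WT, 11.58, 11.60 and 11.59 in Cre-ERT2 WT, 11.01, 11.06 and 11.07 in ERT2 KO, and 10.98, 11.09 and 11.05 in Cre-ERT2 KO. H2-T10 held values of 11.18, 11.19 and 11.17 in ERT2 WT, 11.11, 11.10 and 11.14 in Cre-ERT2 WT, 10.60, 10.64 and 10.67 in ERT2 KO, and 10.64, 10.63 and 10.56 in Cre-ERT2 KO. Both fell by about the same amount, H2-T22 by 0.57 and 0.55 and its close relative H2-T10 by 0.55 and 0.51 (ERT2 and Cre-ERT2, limma adjusted p at most 5.66e-09). GENCODE lists H2-T10 as a polymorphic pseudogene, and 7.06% of its 100-base stretches also occur in H2-T22. The part of shared reads in their likeness was not tested.

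H2-Q4 had values of 10.93, 10.90 and 10.99 in ERT2 WT, 11.03, 10.97 and 11.03 in Cre-ERT2 WT, 10.39, 10.39 and 10.43 in ERT2 KO, and 10.46, 10.36 and 10.37 in Cre-ERT2 KO. This was a fall of 0.54 with ERT2 and of 0.61 with Cre-ERT2 (limma adjusted p = 2.61e-08 and 6.92e-09), with every KO library below every WT library. H2-T23, the mouse Qa-1 gene, changed by -0.39 and -0.38, and the weakly expressed H2-T24 by -0.16 and -0.19, all called lower. Not called in either comparison were H2-M3, H2-Bl, H2-Q5 and H2-Q6, with changes between -0.06 and 0.11. H2-Q5 was erratic, standing at 7.41 in 1 Cre-ERT2 WT library and 7.40 in 1 Cre-ERT2 KO library against 6.85 to 7.16 in the other 10, and its intervals ran from -0.18 to 0.40. H2-Q10 was called higher by 0.14 and by 0.08. The latter (limma adjusted p = 0.0469) was not called without Cre-ERT2 KO replicate 1 (0.05, adjusted p = 0.198) or without Cre-ERT2 WT replicate 1, 2 or 3 (0.08, 0.06 and 0.08), nor, at the same 0.08, without ERT2 KO replicate 1 or any ERT2 WT library. It was 0.04 with median-centred libraries and 0.02 (adjusted p = 0.52) with quantile normalization, neither called.

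H2-Q6 and H2-Q7, neighbouring genes of the Qa-2 group, were set side by side after their values were seen, since only H2-Q7 was called. H2-Q7 had values of 11.37, 11.36 and 11.40 in ERT2 WT, 11.30, 11.15 and 11.27 in Cre-ERT2 WT, 11.07, 11.09 and 11.09 in ERT2 KO, and 11.07, 11.15 and 11.04 in Cre-ERT2 KO. H2-Q6 had values of 10.94, 10.87 and 11.03 in ERT2 WT, 11.02, 10.88 and 10.93 in Cre-ERT2 WT, 11.00, 11.06 and 11.07 in ERT2 KO, and 11.05, 11.00 and 10.91 in Cre-ERT2 KO. The H2-Q7 change was -0.29 (95% interval -0.37 to -0.21, limma adjusted p = 2.13e-05) with ERT2 and -0.15 (-0.23 to -0.07, adjusted p = 0.00383) with Cre-ERT2, the ranges of KO and WT meeting at 11.15 in the Cre-ERT2 libraries without overlap. The H2-Q6 change was 0.10 (-0.00 to 0.20) and 0.04 (-0.06 to 0.14), and KO and WT libraries overlapped. The difference between the genes was not tested, and 10.8% of the 100-base stretches of H2-Q6 and 12.0% of those of H2-Q7 also occur in other genes, mostly other H2-Q genes.

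**Figure D2:**
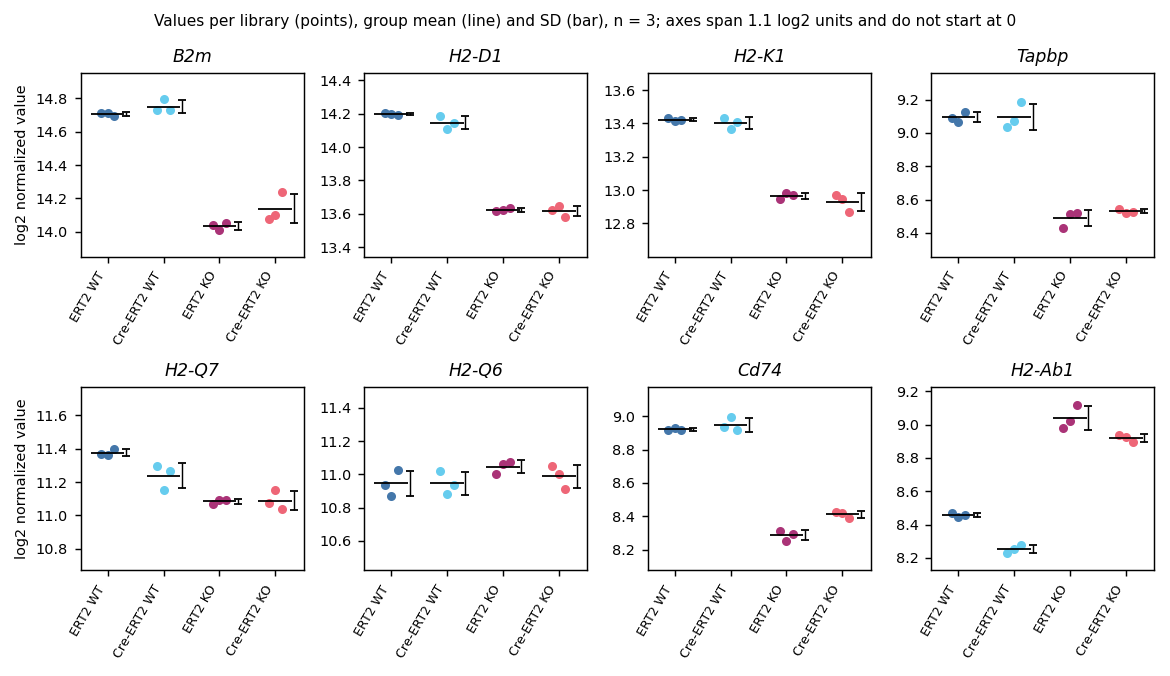
Points are log2 normalized values of single libraries (vertical axis, 1.1 log2 units per panel, not starting at 0) in the 4 groups (horizontal axis), with the group mean as a line and its SD as a bar, n = 3. KO points lie below all WT points for B2m, H2-D1, H2-K1, Tapbp, H2-Q7 and Cd74, above them for H2-Ab1, and among them for H2-Q6.

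The loading genes fell with the chains they serve. In ERT2 cells 5 of the 6 light chain and loading genes were called lower (29.3% of all genes), and in Cre-ERT2 cells all 6 (28.6% of all genes). Tapbp had values of 9.09, 9.07 and 9.13 in ERT2 WT, 9.04, 9.07 and 9.19 in Cre-ERT2 WT, 8.43, 8.51 and 8.52 in ERT2 KO, and 8.54, 8.52 and 8.53 in Cre-ERT2 KO. Tapbp encodes tapasin, which tethers class I molecules to TAP, and it changed by -0.60 and -0.57 (SE 0.039, limma adjusted p = 3.34e-08 and 5.86e-08), with no KO library above 8.54 and no WT library below 9.04. Tap1 had values of 11.81, 11.79 and 11.89 in ERT2 WT, 11.90, 11.76 and 11.79 in Cre-ERT2 WT, 11.49, 11.56 and 11.54 in ERT2 KO, and 11.54, 11.54 and 11.51 in Cre-ERT2 KO. The change of this TAP subunit was -0.30 and -0.28 (SE 0.038, adjusted p = 1.68e-05 and 2.87e-05). Its partner Tap2 changed by -0.08 with ERT2 (adjusted p = 0.0738, not called) and fell by 0.22 with Cre-ERT2. Erap1, the trimming peptidase, changed by -0.45 and -0.48, and Tapbpl, a tapasin-related peptide editor, by -0.17 and -0.27, all called lower.

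Nlrc5, the transactivator that binds class I promoters, was not called. Nlrc5 had values of 5.57, 5.56 and 5.82 in ERT2 WT, 5.63, 5.61 and 5.77 in Cre-ERT2 WT, 5.67, 5.82 and 5.72 in ERT2 KO, and 5.74, 5.67 and 5.72 in Cre-ERT2 KO. The KO and WT ranges overlapped with both vectors, and the change was 0.09 (-0.06 to 0.23) with ERT2 and 0.04 (-0.10 to 0.18) with Cre-ERT2. These intervals leave room for a decrease of at most 0.10 on this scale. Nlrc5 ranked 31 of the 34 members per kilobase, at 2.56 in ERT2 WT, a level at which compression would shrink a change. Over the class I side as a whole, 13 of 19 genes were lower in both comparisons, against 24.1% of all genes.

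**Figure D3:**
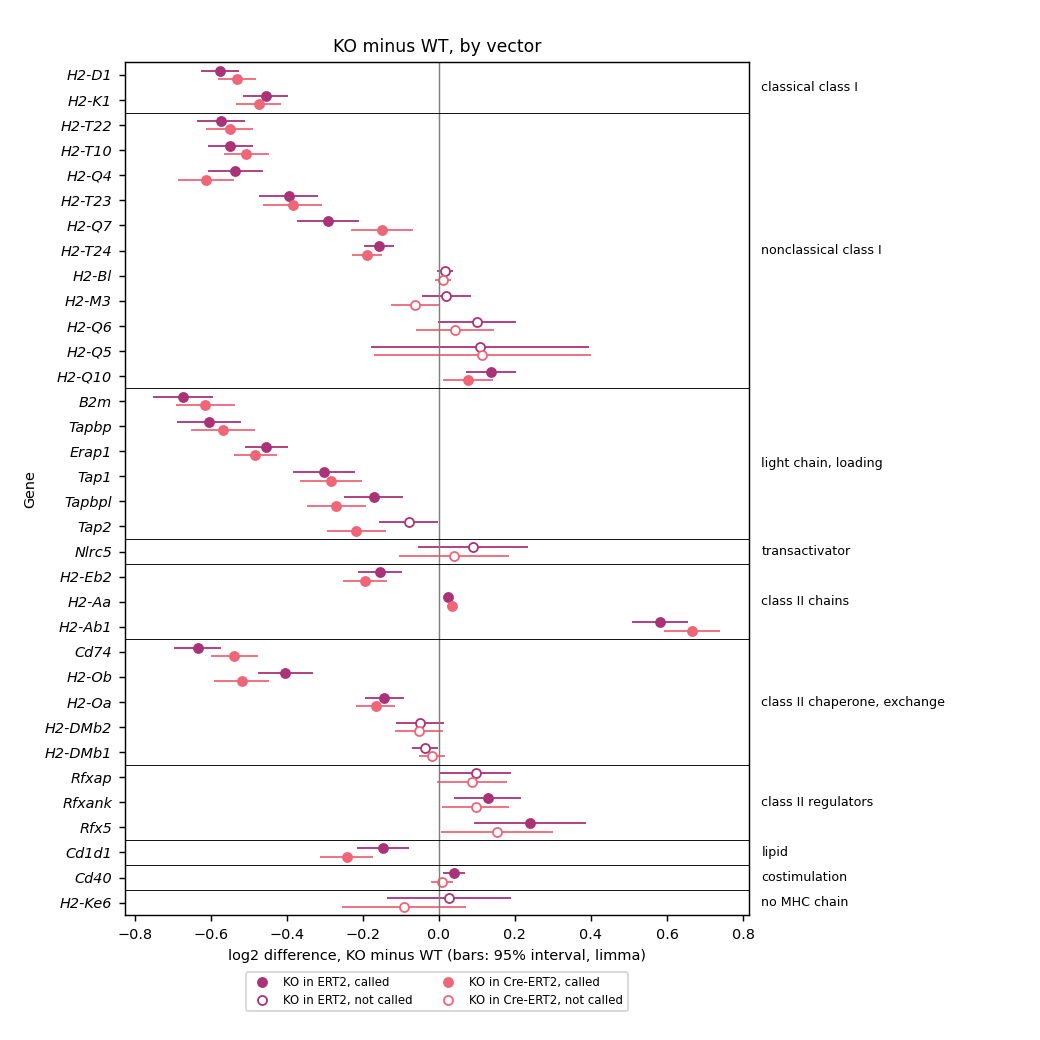
Points are log2 differences between KO and WT libraries (horizontal axis) for each gene (vertical axis, by role), dark for ERT2 and light for Cre-ERT2, filled where called, with bars for the 95% interval from limma. B2m, Tapbp, Cd74 and H2-D1 lie at -0.53 or below with both vectors, and H2-Ab1 at 0.58 and 0.67.

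The upstream sequences of 5 class I genes are shown because the module that NLRC5 and the RFX, CREB and NF-Y factors occupy lies just before the start, and because they let the 2 Qa-2 genes be compared. They are the 250 bases before the RefSeq start (GRCm38.p6), 5′ to 3′ on the strand of the gene, at chr2:122147437-122147686 (plus) for B2m, chr17:34000348-34000597 (minus) for H2-K1, chr17:35379367-35379616 (plus) for H2-Q4, chr17:35438905-35439154 (plus) for H2-Q7 and chr17:35424600-35424849 (plus) for H2-Q6. Capitals mark letters found on either strand of the Y box core that NF-Y reads (CCAAT), an X2 or CRE-like core (TGACG), an interferon response element (GAANNGAAA), the Ikaros core (GGGAA) and a class I NF-κB site (GGGATTCCC, searched after the windows had been read). GAANNGAAA is a single form of the interferon response element. Other spacings, such as GAAACTGAAA in the B2m window, were not searched and are not marked.
B2m: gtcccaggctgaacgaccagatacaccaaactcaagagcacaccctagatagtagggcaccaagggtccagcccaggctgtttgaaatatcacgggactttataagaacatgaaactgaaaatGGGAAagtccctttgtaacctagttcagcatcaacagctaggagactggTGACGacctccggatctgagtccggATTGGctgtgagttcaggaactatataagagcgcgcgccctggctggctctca
H2-K1: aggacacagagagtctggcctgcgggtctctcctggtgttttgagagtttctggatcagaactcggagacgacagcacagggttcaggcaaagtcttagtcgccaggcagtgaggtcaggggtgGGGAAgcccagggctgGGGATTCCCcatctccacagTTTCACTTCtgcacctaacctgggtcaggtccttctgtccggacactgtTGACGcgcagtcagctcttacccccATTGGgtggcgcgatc
H2-Q4: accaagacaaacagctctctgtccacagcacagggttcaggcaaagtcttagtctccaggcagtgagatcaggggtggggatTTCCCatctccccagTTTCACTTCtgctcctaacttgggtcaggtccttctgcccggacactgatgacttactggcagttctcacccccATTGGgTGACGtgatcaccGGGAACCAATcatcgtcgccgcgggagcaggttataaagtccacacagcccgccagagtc
H2-Q7: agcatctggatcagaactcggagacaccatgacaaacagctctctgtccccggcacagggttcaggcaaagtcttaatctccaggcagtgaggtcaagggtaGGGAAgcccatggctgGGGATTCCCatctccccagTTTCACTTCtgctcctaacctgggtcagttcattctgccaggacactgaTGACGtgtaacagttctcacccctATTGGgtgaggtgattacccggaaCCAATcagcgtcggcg
H2-Q6: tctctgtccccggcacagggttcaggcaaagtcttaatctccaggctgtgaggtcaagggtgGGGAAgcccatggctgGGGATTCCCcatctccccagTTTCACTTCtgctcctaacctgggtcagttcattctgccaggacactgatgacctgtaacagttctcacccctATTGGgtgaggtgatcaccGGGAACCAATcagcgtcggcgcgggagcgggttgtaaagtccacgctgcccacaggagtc
Each NF-κB match contains an Ikaros core match within its last letters, so those 2 counts are not separate.

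Windows were available for 22 of the 34 members, and shares were compared with all 32851 RefSeq windows cut to the same length. The Y box core was found in 20 of 22 member windows (90.9%) and in 33.8% of all windows, and TGACG in 9 (40.9%) and in 17.8%. The GAANNGAAA form of the interferon response element was found in 7 (31.8%) and in 6.31%. The Ikaros core stood in 17 (77.3%) and in 56.2% of all windows, and the TCF/LEF core CTTTGA, the letters through which β-catenin partners bind, in 5 (22.7%) and in 13.8%. GGGATTCCC was found for H2-D1, H2-K1, H2-Q6 and H2-Q7 (18.2%) and in 0.301% of all windows. H2-Q7 and H2-Q6 both held the NF-κB, interferon, Ikaros and Y box letters, and TGACG was found for H2-Q7 but not for H2-Q6. Of the genes that were called lower with both vectors, B2m, H2-D1, H2-K1, H2-Q4, H2-Q7, H2-T22 and Tap1 had TGACG in the window, and H2-T23, Tapbp, Erap1, H2-Oa, H2-Ob and H2-Eb2 did not. It was also found for H2-Aa, called higher, and H2-M3, not called. The match is a description of letters, and binding was not measured here.

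**Figure D4:**
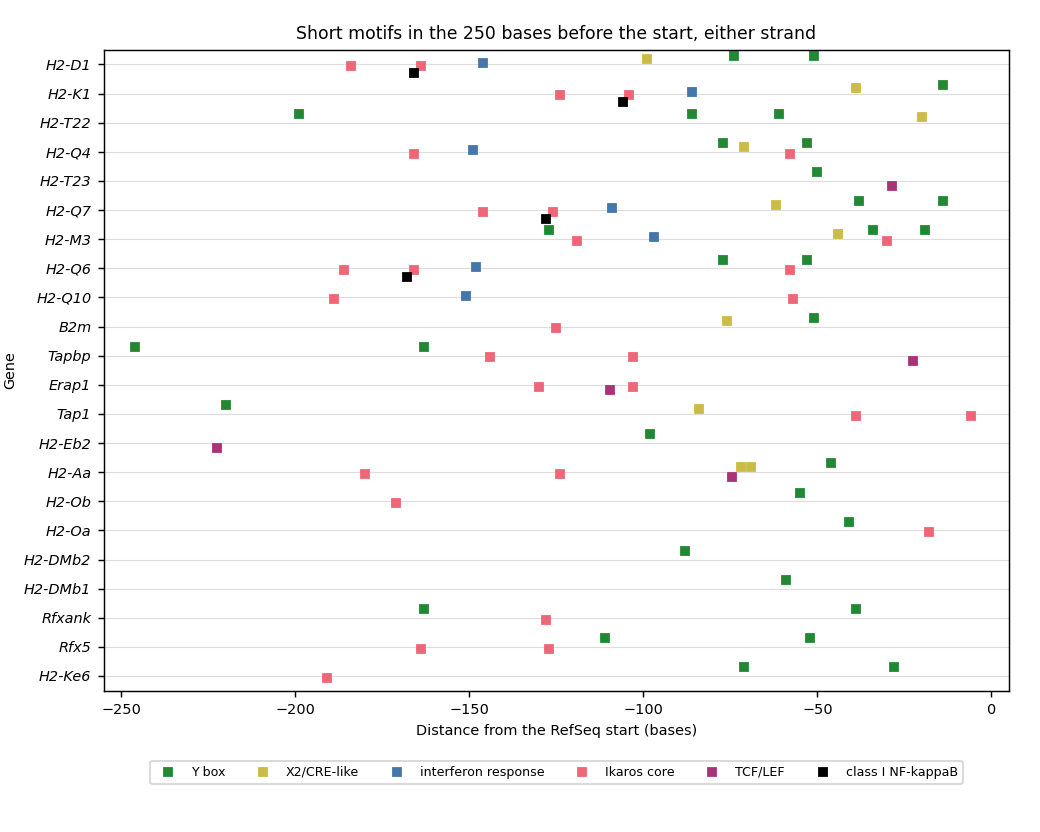
Squares mark motif matches on either strand by their distance in bases before the RefSeq start (horizontal axis) for the members with a window and a match (vertical axis), coloured by motif. In H2-D1, H2-K1, H2-Q4 and H2-Q7 the interferon response letters lie upstream of the TGACG and Y box letters, and 20 of 22 windows hold a Y box core.

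The class II genes did not move as a set. Of the 3 class II chain genes 2 were called higher and 1 lower with either vector. Among all 12151 genes, 3616 (ERT2) and 3688 (Cre-ERT2) were called higher, and 29.3% and 28.6% lower. H2-Ab1 had values of 8.47, 8.45 and 8.46 in ERT2 WT, 8.23, 8.25 and 8.28 in Cre-ERT2 WT, 8.98, 9.02 and 9.12 in ERT2 KO, and 8.94, 8.93 and 8.89 in Cre-ERT2 KO. This β chain of the I-A molecule was the member that rose most, by 0.58 (SE 0.034, limma adjusted p = 1.26e-08) with ERT2 and by 0.67 (adjusted p = 3.15e-09) with Cre-ERT2, and all 6 KO libraries lay above all 6 WT libraries. H2-Aa had values of 2.35, 2.35 and 2.36 in ERT2 WT, 2.35, 2.35 and 2.35 in Cre-ERT2 WT, 2.38, 2.39 and 2.37 in ERT2 KO, and 2.38, 2.38 and 2.39 in Cre-ERT2 KO. H2-Aa, its α chain partner, thus stayed close to the lowest values in the table. Its change of 0.03 in both comparisons was called higher (adjusted p = 0.0028 and 0.000283), but with median-centred libraries it was -0.0068 with ERT2 and 0.00086 with Cre-ERT2, neither called. H2-Eb2 fell by 0.15 and 0.19.

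Cd74 had values of 8.92, 8.93 and 8.92 in ERT2 WT, 8.94, 8.99 and 8.92 in Cre-ERT2 WT, 8.31, 8.25 and 8.30 in ERT2 KO, and 8.43, 8.42 and 8.39 in Cre-ERT2 KO. Cd74, on chromosome 18 and so outside the MHC, thus moved against H2-Ab1 in the same libraries. It fell by 0.63 (SE 0.028, limma adjusted p = 8.68e-10) with ERT2 and by 0.54 (adjusted p = 4.42e-09) with Cre-ERT2. H2-Ob had values of 9.13, 9.09 and 9.14 in ERT2 WT, 9.20, 9.13 and 9.17 in Cre-ERT2 WT, 8.72, 8.67 and 8.76 in ERT2 KO, and 8.66, 8.69 and 8.59 in Cre-ERT2 KO. H2-Oa had values of 7.16, 7.20 and 7.20 in ERT2 WT, 7.19, 7.24 and 7.22 in Cre-ERT2 WT, 7.05, 7.05 and 7.03 in ERT2 KO, and 7.06, 7.05 and 7.05 in Cre-ERT2 KO. These chains form the DO protein, a brake on peptide exchange that B cells make, and both fell, H2-Ob by 0.40 and 0.52 and H2-Oa by 0.14 and 0.17 (adjusted p at most 0.000168). H2-DMb1 and H2-DMb2, chains of the exchange factor DM, were not called, with changes between -0.05 and -0.02.

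The subunits of the RFX factor, which binds class I and class II promoters, did not fall. Rfx5 and Rfxank were called higher with ERT2, by 0.24 (limma adjusted p = 0.00848) and 0.13 (adjusted p = 0.0153), and were not called with Cre-ERT2 (0.15 and 0.10). Without ERT2 WT replicate 1, ERT2 WT replicate 2 or ERT2 KO replicate 1 the Rfxank change was 0.11, 0.11 and 0.11 and not called, nor was it with median-centred libraries (0.10, adjusted p = 0.0608) or quantile normalization (0.06, adjusted p = 0.218). Rfxap was not called. The NF-Y subunit genes Nfya (-0.26 and -0.23), Nfyb (-0.13 and -0.22) and Nfyc (-0.30 and -0.27) were called lower with both vectors. Creb1, like them no member, was also called lower (-0.13 and -0.12). Cd1d1 had values of 7.68, 7.72 and 7.60 in ERT2 WT, 7.79, 7.82 and 7.76 in Cre-ERT2 WT, 7.54, 7.50 and 7.52 in ERT2 KO, and 7.56, 7.54 and 7.54 in Cre-ERT2 KO. Cd1d1 encodes the lipid-presenting molecule of natural killer T cells and fell by 0.15 (adjusted p = 0.00157) and 0.24 (adjusted p = 2.81e-05). Cd40 stood at 3.56, 3.58 and 3.59 in ERT2 WT, 3.59, 3.57 and 3.58 in Cre-ERT2 WT, 3.59, 3.63 and 3.63 in ERT2 KO, and 3.58, 3.59 and 3.59 in Cre-ERT2 KO. Cd40, the costimulatory receptor, was near the low end of the table, and its change of 0.04 with ERT2 was not called without ERT2 KO replicate 2 (0.03), ERT2 KO replicate 3 (0.03) or ERT2 WT replicate 1 (0.03), nor with median-centred libraries (0.0077, adjusted p = 0.633). H2-Ke6 was not called, and 61.6% of its 100-base stretches also occur in Gm20427.

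The decreases were not limited to the MHC. Of the 34 members 24 lie on chromosome 17. Between H2-K1 and H2-M3 (chr17:33996017-37274484, GRCm38) the table held 82 genes that are no members, of which 30 were called lower (36.6%) and 20 higher with ERT2 and 29 lower (35.4%) and 17 higher with Cre-ERT2. On the whole chromosome, these 82 included, 32.7% and 31.9% of 590 genes that are no members were called lower. In each comparison 2 of the 82 neighbours fell by at least 0.5. B2m, Cd74, Erap1, Tapbpl and Cd1d1, which fell with both vectors, lie on other chromosomes.

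Among genes outside the rule that make or regulate the same machinery, 37 of 43 listed were in the table. With ERT2 25 were called lower and 6 higher, and with Cre-ERT2 27 and 6, where 29.3% and 28.6% of all genes were called lower. Of 9 genes of class I processing, which include immunoproteasome subunits and endoplasmic reticulum chaperones, 8 were lower in each comparison, none by 0.5 or more. Irf1, a factor that binds interferon response elements, fell by 0.43 and 0.54 (limma adjusted p = 2.4e-07 and 2.84e-08). Irf2, of the same family, was called higher, by 0.32 and 0.31. Spib, an ETS factor of B cells, showed the largest change of the list, -2.80 with both vectors, while Irf8, which can partner it, rose by 0.96 and 0.93. Irf4 fell by 0.77 and 0.52 and the B cell coactivator gene Pou2af1 by 0.60 and 0.73, whereas Pou2f2, the gene of its partner Oct-2, rose by 0.58 and 0.53. Ezh2, a histone methyltransferase, fell by 0.47 and 0.55, and Lgmn, an endosomal protease, by 0.59 and 0.52. Ifi30, listed with Lgmn for the class II route, was called higher, by 0.44 and 0.34. The adhesion genes Cd48 and Icam1 fell by 0.73 and 0.66 and by 0.62 and 0.64.

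Markers of other cells that could carry class II moved in both directions. Of 15 dendritic cell or macrophage genes 6 were in the table, of which Cst3 had a mean above 8 in all groups and Lyz2 in the KO groups (8.40 and 8.61, against 7.41 and 7.38 in WT), and their summed level was 11.41 to 11.53 in WT and 11.49 to 11.60 in KO libraries. Lyz2 was higher in KO by 0.99 and 1.23, whereas Flt3 (-0.23 and -0.21) and Itgam (-0.15 and -0.18) were lower with both vectors. With ERT2 alone Cst3 was lower (-0.08) and Cd68 higher (0.06), and Xcr1 was not called. None of the 5 granulocyte markers was in the table, 1 of 7 T cell markers was (Lck, changed by -1.45 and -1.93), and so were 5 of 6 mature B markers. Of these, Cxcr5 (-1.27 and -1.62) and Ms4a1 (-0.03 and -0.03) were lower with both vectors, Cd22 (0.46 and 0.33) was higher with both, Ighd was lower with ERT2 (-0.22, against -0.11 with Cre-ERT2, not called), and Cr2 was not called. The part of other cells in the H2-Ab1 and Cd74 changes was not tested.

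With Cre-ERT2 in place of ERT2, 5 of the 34 members were called in WT and 2 in KO. No classical heavy chain was among them, nor was B2m. In WT cells 5 members were called where 11.9% of all genes were called, namely Tapbpl (0.15, limma adjusted p = 0.0159), Cd1d1 (0.12, adjusted p = 0.0253) and Erap1 (0.10, adjusted p = 0.0303) higher and H2-Ab1 (-0.20, adjusted p = 0.00156) and H2-Q7 (-0.14, adjusted p = 0.031) lower. In KO cells 2 were called where 12.6% of all genes were called, Cd74 (0.12, adjusted p = 0.0122) higher and H2-Ab1 (-0.12, adjusted p = 0.037) lower. All 34 differences lay between -0.20 and 0.17, and none of the called ones reached 0.5. B2m differed by 0.04 (-0.03 to 0.12) in WT and by 0.10 (0.03 to 0.18, adjusted p = 0.0861) in KO, H2-D1 by -0.05 and -0.01 and H2-K1 by -0.02 and -0.04, none called.

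H2-Ab1 was the member called in both backgrounds, and its 3 Cre-ERT2 libraries lay below its 3 ERT2 libraries in WT (8.23 to 8.28 against 8.45 to 8.47) and in KO (8.89 to 8.94 against 8.98 to 9.12). It was also the member that rose most with KO. Most of the β-catenin calls were lost in fits that left out single libraries. The difference itself could stay nearly the same, as for Cd1d1 in WT, at 0.12 without Cre-ERT2 WT replicate 1. In WT cells 1 member was called without Cre-ERT2 WT replicate 2, 2 without ERT2 WT replicate 1 or 3, and 3 without ERT2 WT replicate 2 or Cre-ERT2 WT replicate 3, and H2-Ab1 was not among the calls lost. In KO cells none was called without ERT2 KO replicate 2, and 1 without ERT2 KO replicate 3, Cre-ERT2 KO replicate 2 or 3, ERT2 WT replicate 1 or 2 or Cre-ERT2 WT replicate 2. The H2-Ab1 call in KO was lost without each of these libraries and without Cre-ERT2 KO replicate 1 (-0.13, limma adjusted p = 0.0574), and its adjusted p was 0.0547 with a replicate block and 0.134 with the libraries of the contrast alone.

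**Figure D5:**
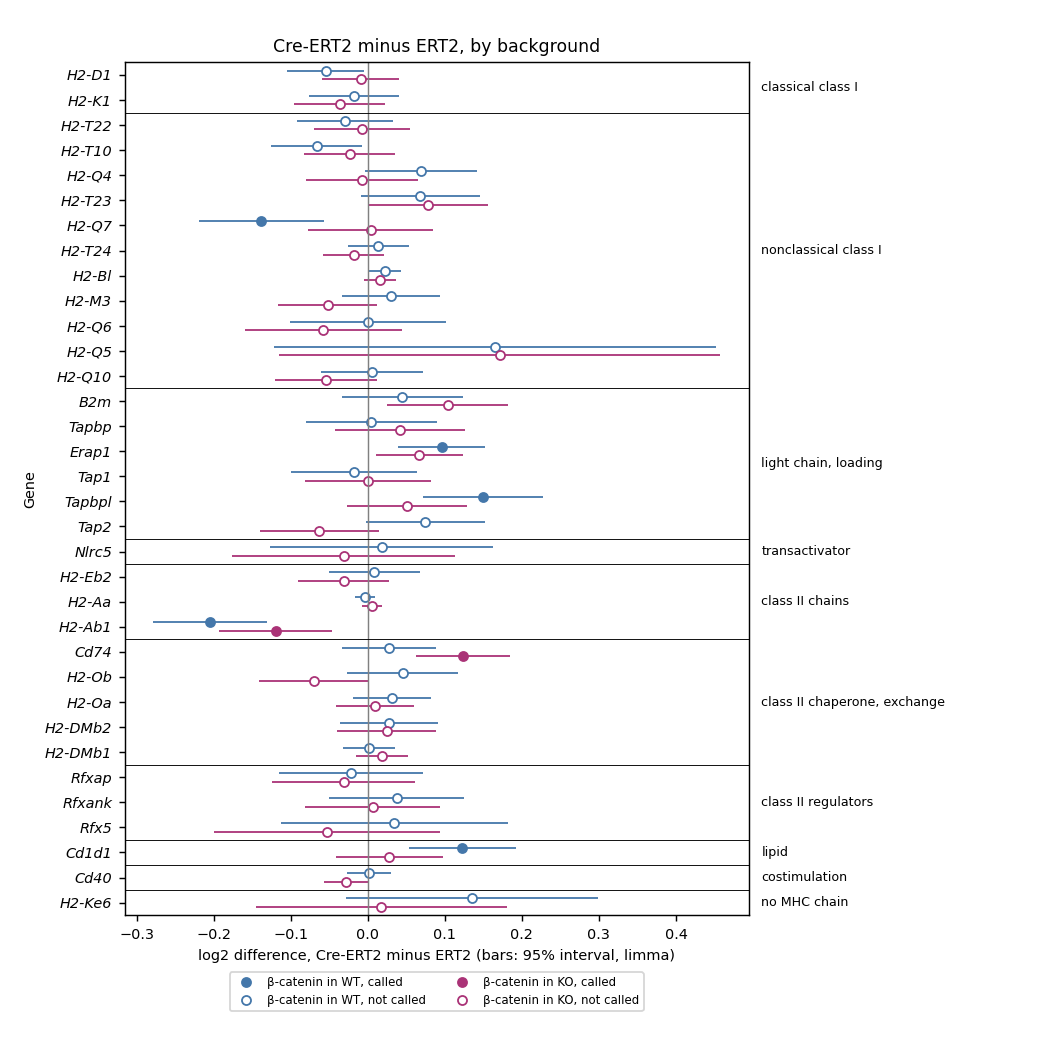
Points are log2 differences between Cre-ERT2 and ERT2 libraries (horizontal axis) for each gene (vertical axis, by role), blue in WT and purple in KO, filled where called, with bars for the 95% interval from limma. H2-Ab1 lies at -0.20 and -0.12, and most intervals of the class I genes include 0.

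No member was called in the test of whether the β-catenin difference depended on KO, where limma called 4.53% of all genes. At an unadjusted p under 0.05 there were 4 of the 34 members, Cd74, H2-Ob, H2-Q7 and Tap2, and 2101 of all 12151 genes. The lowest adjusted p among members was 0.171. The 95% interval of this difference had a median half-width of 0.0999, and the widest, 0.405, was that of H2-Q5. Of the 16 listed regulators, 7 were called higher and 1 lower with β-catenin in WT, and 6 and 1 in KO. Of all genes 11.9% and 12.6% were called. Prdm1, the gene of a plasma cell factor, rose by 0.66 in WT and by 0.64 in KO. Irf4 rose by 0.26 and 0.51 and Ezh2 by 0.42 and 0.33, while Pou2f2 fell by 0.21 and 0.26. The part of these genes in the member differences was not tested.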

How the data were processed

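RNA from 4 groups of 3 libraries was sequenced as paired-end reads. The authors quantified them with Salmon 1.4.0 and STAR 2.7.6 on mm10 (GRCm38) and analyzed them with DESeq2 1.30.1. The deposited table holds log2 values normalized between libraries by the authors, with no counts, and its transformation is not given in the sources used here. A linear model of 4 group means was fitted with limma 3.58.1 in R 4.3.3 (trended eBayes, no filter, Benjamini-Hochberg adjustment over 12151 genes). No column was left unmapped. An exact permutation test of 3 against 3 libraries cannot go below p = 0.1, so none is given. The members and lists were chosen with earlier results of these data known. Values of all libraries were given for the main presentation genes and for members called with a change of at least 0.5, plus H2-Q6 and H2-Q7. Alternatives were a replicate block, other scalings, pseudocounts of 1 and 32, a mean of at least 8, no trend, fewer libraries, and a stricter threshold. Positions, exon lengths and transcripts came from GENCODE vM21, and upstream windows from RefSeq. The fit was tested on simulated data. The values of 1 gene of the wider pathway list are not reported here.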

Additional observations from a re-analysis of the deposited data

How the results depend on the processing

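Counts of called members in the KO comparisons stayed within 1.5 times of their values under the alternatives run. They were 24 with ERT2 (23 to 26 on leaving out single libraries) and 22 with Cre-ERT2 (21 to 24), and lowest where fewer members entered, at 16 and 16 with a mean of at least 8 and at 17 and 15 without nonclassical class I and H2-Ke6. The β-catenin counts moved more. In WT the 5 calls became 3 with a replicate block, 1 with the libraries of the contrast alone, 1 at an adjusted p under 0.01, and 1 to 5 without single libraries. In KO the 2 calls became 1, 1, 0 and 0 to 2 in the same order. The interaction count was 0 under all alternatives run (0 to 0 without single libraries). Replicate numbers gave little sign of pairing. The deviations of same-numbered libraries correlated at -0.091 to 0.313 and exceeded 0.1 in 2 of 18 pairs. Some differently numbered libraries correlated more strongly, as Cre-ERT2 WT replicate 2 with Cre-ERT2 KO replicate 3 (0.356) and with Cre-ERT2 KO replicate 1 (-0.355). What lies behind these correlations was not tested. With the block the KO counts were 24 and 23. Of 652 alternative values for 16 named genes, 626 stayed on the same side of the threshold, 25 lost the call and 1 changed sign (H2-Aa, KO with ERT2, -0.0068 with median-centred libraries). The cause of the lost calls was not tested. Without read counts, depth sets no stated limit here.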
